A study of Mus musculus with 6 samples.

Results

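Dppa2, Dppa3, Dppa4 and Tdgf1 are genes of early embryos and pluripotent cells, and 5 of the 22132 probes on the arrays measured them. These are the probes to which the platform annotation gives exactly 1 gene symbol, that symbol being 1 of these 4 names. Dppa2 had 2 such probes, called here the higher and the lower probe after their ratios, and the other genes had 1 each. The genes were chosen by their ratios against the reference RNA in earlier results of these arrays, so these ratios are given as a description and with no test. The comparison between the groups of embryos is tested.

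All embryos were parthenogenetic, that is, they arose from mouse eggs activated without sperm and hold no paternal genome. Eggs at metaphase 2 were activated either with cycloheximide, which blocks protein synthesis and raises no calcium signal, or with strontium chloride, which sets off repeated releases of calcium in the egg. Cytochalasin D, which keeps the polar body from being extruded, was part of both treatments, and both groups were then kept for 60 h in KSOM, a culture medium for mouse embryos. The strain is not given in the sources used here, and no fertilised embryos were analysed here. Each of the 3 arrays per group carried RNA equal to 25 pooled embryos in the Cy3 channel and the same commercial mouse reference RNA in the Cy5 channel. The title of the series asks whether a missing calcium signal at activation affects development and gene expression.

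Values are log2 ratios of embryo over reference. This direction is likely, not stated: it rests on the dyes in the labels and on the red over green convention of Agilent's software, and every sign below would turn if it were the opposite. The deposited ratios stop at 100-fold (6.64 on the log2 scale), and 9 of the 30 values of these probes were at that limit. A value at the limit is a lower bound. Means with such values are therefore too low, and their SDs do not give the true spread. No dyes were exchanged, and embryo RNA went through 2 rounds of amplification against 1 for the reference. Effects of the dyes or of these rounds cannot be told apart from the level of a probe, but both groups share them. Fewer cells of a type and less RNA per cell cannot be told apart either.

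Tdgf1, also called Cripto, is anchored to the cell surface and serves as a co-receptor for Nodal, a ligand of the TGF-beta family that acts through activin receptors and Smad2. Dppa2 and Dppa4 are nuclear proteins with a SAP domain, which binds DNA. In mouse embryonic stem cells they bind chromatin together, and they lie upstream of Dux and of other genes of the 2-cell stage. Dppa3, also called Stella or PGC7, is stored in the egg and shields the maternal genome from the loss of DNA methylation after fertilisation. Dppa2 and Dppa4 are neighbours on 1 chromosome, with 0 other genes between them in the mouse gene table. That table also lists 2 pseudogenes of Tdgf1 and 1 of Dppa3. The probe sequences were not used here, so a signal from these copies was not tested.

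Of the 4 genes, 1 matched the RefSeq promoter table (build GRCm38.p6). Its window is shown because Tdgf1 was the gene whose ratio was at the limit on every array. It covers chr9:110946109-110946408 on the minus strand, 250 bases before the start of the gene and 50 after it, written from 5′ to 3′. Capitals mark the letters GGGNGTGG, the core of motifs bound by Krüppel-like factors.
Tdgf1: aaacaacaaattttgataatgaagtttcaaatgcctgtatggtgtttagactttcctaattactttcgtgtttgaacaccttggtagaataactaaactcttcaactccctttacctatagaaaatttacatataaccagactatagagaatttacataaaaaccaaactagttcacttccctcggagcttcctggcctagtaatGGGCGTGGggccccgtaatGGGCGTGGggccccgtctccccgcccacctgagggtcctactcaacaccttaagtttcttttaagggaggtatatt

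Searched on both strands, GGGNGTGG had 2 matches in this window, beginning 45 and 26 bases before the start. Of all 32851 windows in the table, 17.6% hold at least 1 match and 3.32% at least 2. The GC box GGGCGG had 1 match, apart from the first motif, and 35.7% of all windows hold it. The octamer ATGCAAAT, found in 1.74% of windows, and the TCF-type motif CTTTGAT, found in 3.73%, had 0 matches. The first motif was chosen after the sequence was seen, and a match is a description of letters, not of a bound site.

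Tdgf1 lay at the limit on all 6 arrays, at least 100-fold above the reference on cycloheximide arrays 1, 2 and 3 and on strontium arrays 1, 2 and 3. No array could therefore be called high or low for this gene, and no difference between the groups could be measured. Over all probes, 2 were at the upper limit on every array, and Tdgf1 was the 1 among them with a single gene name. At least 1 array reached the limit for 142 probes, of which 5 had a single gene, namely Tdgf1, Dppa2 (higher probe), Dppa3, Npl and Sp1.

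The higher probe of Dppa2 was at 5.71, 6.14 and the limit of 6.64 on cycloheximide arrays 1 to 3, and at 6.40, 6.23 and the limit on strontium arrays 1 to 3. Array 3 was the highest in both groups and cycloheximide array 1 the lowest of all, and the groups overlapped. In linear terms the measured ratios ran from 52.5-fold to 84.4-fold. The lower probe was at 2.42, 1.82 and 2.18 after cycloheximide and at 1.15, 1.77 and 1.94 after strontium. Here cycloheximide array 1 was the highest and strontium array 1 the lowest, and the groups overlapped again, since strontium array 3 lay above cycloheximide array 2.

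Both probes of Dppa2 showed more RNA in embryos than in the reference on 6 of 6 arrays but did not give the same size. Their gap was 3.30, 4.32 and 4.47 on the cycloheximide arrays and 5.25, 4.46 and 4.71 on the strontium arrays, on the log2 scale. The gaps of the groups overlapped narrowly, and on array 3 of each group the limit makes the gap a lower bound. Which of the probes reports the level of Dppa2 better cannot be said from ratios alone.

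Dppa4, the partner of Dppa2, was at 2.07, 2.60 and 3.44 after cycloheximide and at 2.58, 2.42 and 3.14 after strontium, with no array at the limit. This is an excess over the reference of 4.19-fold to 10.9-fold. Array 3 was the highest in both groups, and the cycloheximide arrays held both the highest and the lowest value. Dppa4 averaged 2.70 ± 0.69 and 2.71 ± 0.38 (SD, n = 3 each).

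Dppa3, the maternal factor, was at 5.10, 5.53 and the limit after cycloheximide, and at 6.61, 5.87 and 6.25 after strontium. Cycloheximide arrays 1 and 2 lay below every strontium array, while array 3 of cycloheximide lay above them all, so the groups overlapped. In linear terms the lowest array stood 34.2-fold and the highest one below the limit 97.7-fold above the reference. The means were at least 5.75 after cycloheximide and 6.24 ± 0.37 after strontium (SD, n = 3).

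**Figure D1:**
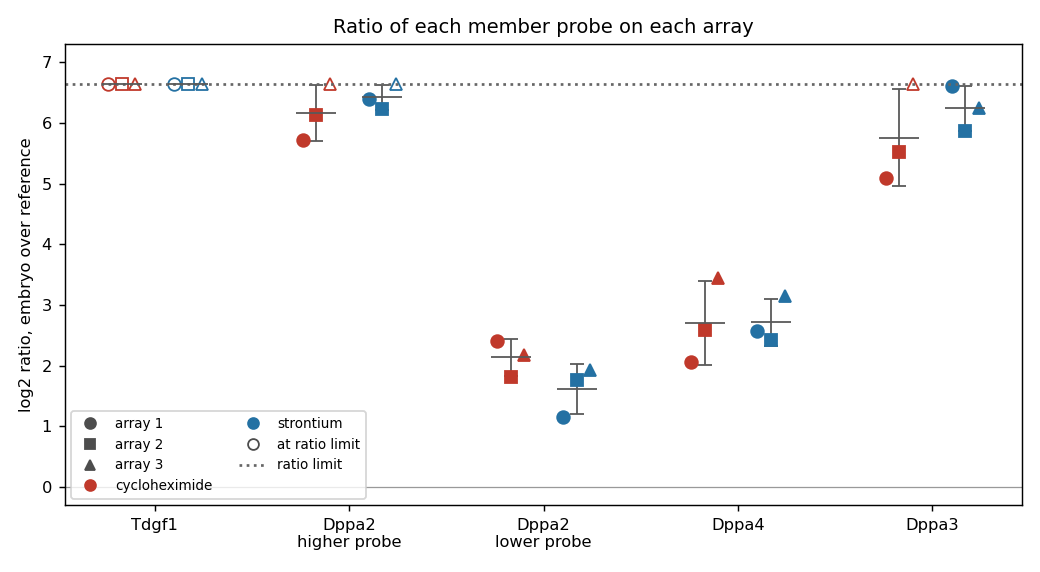
Log2 ratio of embryo over reference for each of the 5 probes (y axis) on the 3 cycloheximide and 3 strontium arrays, with each group's mean (bar) and SD (whisker). Open symbols are at the ratio limit of 6.64 (dotted line), where mean and SD are not the true ones; Tdgf1 sits there on all 6 arrays, and in the other 4 probes the groups overlap.

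Against all 21921 probes tested, these probes lay on the far embryo side of the ratios, as their choice implies. On average over the arrays, 7 probes had a higher ratio than the higher probe of Dppa2 and 21 than Dppa3. For Dppa4 the number was 617, or 2.81% of probes, and for the lower probe of Dppa2 it was 1218, or 5.56%. Since ratios at the limit are tied, these ranks are approximate at the top. The ratio of a probe depends on the reference RNA as much as on the embryo, so its rank is not a rank of abundance in the embryo.

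**Figure D2:**
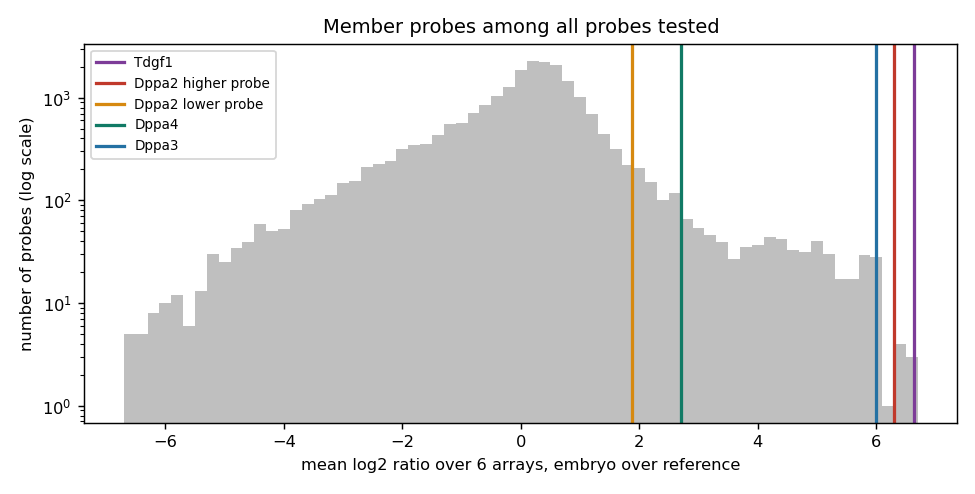
Number of probes (log scale) by mean log2 ratio of embryo over reference over the 6 arrays, for the 21921 probes tested, with the 5 probes of these genes as vertical lines. Tdgf1, the higher probe of Dppa2 and Dppa3 lie at 6.64, 6.30 and 5.999, and Dppa4 and the lower probe of Dppa2 at 2.71 and 1.88.

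Facts of the whole set of arrays bear on these values. The interquartile range of the log2 ratios was 1.60 on array 3 of cycloheximide and 1.59 on array 3 of strontium, against 1.11 to 1.41 on the others. These 2 arrays had 130 and 92 probes at the upper limit, against 4 to 40 on the others. Array 3 of cycloheximide was closer to every strontium array than to the arrays of its own group. Its correlation over probes was 0.855, 0.853 and 0.909 with strontium arrays 1 to 3, against 0.762 and 0.810 within its group. Embryo markers had single-gene probes for 3 of 8 genes, Cdh1, Gata3 and Krt18, and their median ratio ran from -0.35 to 0.59 over the arrays, so the stage of the embryos could be checked only in part. Of other cells, fibroblast markers (2 of 8 measured) had medians from -6.10 to -4.79 on the reference side. Medians of blood markers (3 of 8 listed symbols, Ptprc also being listed as Cd45) ran from -0.05 to 0.36. Those of cumulus and granulosa markers (2 of 10) ran from -0.92 to -0.36. These medians hide unlike genes. Ptprc lay between -3.41 and -1.44, S100a8 between 0.27 and 0.72 and S100a9 between -0.05 and 0.36. The S100a9 range is an average of 2 probes that disagreed, 1 between 0.66 and 1.72 and the other between -1.005 and -0.45. Gja1 lay between -1.805 and -0.55, and Cyp11a1, with 4 exact ratios of 0 among its probes, between -1.18 and 0.57. Primordial germ cell markers had 0 of 4 genes measured.

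Cycloheximide and strontium embryos were compared to ask whether these genes answered to the way of activation. In none of the 4 probes with a measurable difference did it pass the test. Dppa2 was 0.52 higher after cycloheximide by its lower probe and 0.26 lower by its higher probe, Dppa3 was 0.49 lower, and Dppa4 differed by -0.01, all on the log2 scale. The test was limma's moderated test with Benjamini-Hochberg adjustment over all 21921 probes, of which 0 (0%) passed an adjusted p of 0.05 in either direction.

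Dppa4 had the smallest difference, cycloheximide minus strontium -0.01 (SE 0.40), with a 95% interval from -0.99 to 0.96, or 0.505-fold to 1.95-fold, and an adjusted limma p of 0.996. The interval leaves room for a change close to a doubling or a halving in either direction. Of all probes, 3.07% had a smaller difference in size. Its sign turned to 0.01 once the array medians were set to 0 and to 0.33 once the spreads of the arrays were made equal as well. It was 0.31 without array 1 of cycloheximide, 0.04 without array 2 of cycloheximide, 0.20 without array 3 of strontium and -0.38 without array 3 of cycloheximide.

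The lower probe of Dppa2 had the smallest p of these genes, with a difference of 0.52 (SE 0.28), a 95% interval from -0.17 to 1.21 and an unadjusted p of 0.115 by limma, which is 0.866 after adjustment. It kept its direction in the 18 alternatives run, between 0.28 without array 1 of strontium and 0.82 with equal spreads. The higher probe differed by -0.26 (SE 0.28), with an interval from -0.94 to 0.43 and an adjusted limma p of 0.874. Each group held 1 limited array of this probe, so the size is uncertain. It was -0.03 without array 1 of cycloheximide, -0.15 without array 3 of strontium and -0.50 without array 3 of cycloheximide. Its sign turned with equal spreads (0.67) and with quantile normalization (0.22). Both settings lowered the limited ratio on array 3 of each group. They also raised cycloheximide arrays 1 and 2, from 5.71 and 6.14 to 6.95 and 7.37 with equal spreads. With quantile normalization these 2 arrays were at 6.35 and 6.43. Strontium array 1 fell from 6.40 to 5.90 with equal spreads and to 5.85 with quantile normalization. The probes of Dppa2 gave opposite directions on the deposited scale, but both were higher after cycloheximide with equal spreads (0.82 and 0.67) and with quantile normalization (0.54 and 0.22), without passing the test.

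Dppa3 differed by -0.49 (SE 0.44), with a 95% interval from -1.56 to 0.58 and an adjusted limma p of 0.866. The limited ratio is on a cycloheximide array, so the mean of that group may be higher and the difference closer to 0 or above it. The result rests on this array: without array 3 of cycloheximide the difference was -0.93 (SE 0.28; limma, adjusted p = 0.213), and without array 3 of both groups -0.93 (limma, adjusted p = 0.277). The difference was -0.16 without array 1 of cycloheximide and -0.30 without array 1 of strontium. With equal spreads it was 0.33 and with quantile normalization 0.36, on the opposite side. Both settings lowered the limited ratio on array 3 of cycloheximide, which by itself moves the difference down. They also raised cycloheximide arrays 1 and 2, from 5.10 and 5.53, and lowered strontium arrays 1 and 3, from 6.61 and 6.25. With equal spreads the cycloheximide arrays were at 6.17, 6.615 and 5.18 and the strontium arrays at 6.10, 5.98 and 4.91. These settings therefore do not settle the direction of Dppa3. On array 3 of cycloheximide the 201 probes with the nearest probe numbers lay 0.34 above their own means in the median, against 0.64 for Dppa3 itself. The part of this local shift was not tested beyond a correction for position, which gave -0.59.

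The 3 measured markers of the embryo all lay lower after cycloheximide, with a median difference of -0.49. Cdh1, the cadherin through which blastomeres adhere, was at 0.40, 0.41 and 0.54 on the cycloheximide arrays and at 0.98, 0.93 and 0.97 on the strontium arrays, a difference of -0.51 (SE 0.14; limma, adjusted p = 0.717). Gata3, a transcription factor of the trophectoderm, was at -0.45, -0.51 and -0.37 against 0.12, -0.08 and 0.12, a difference of -0.49 (SE 0.15; limma, adjusted p = 0.717). Neither passed the adjusted threshold, although the groups were fully apart for both, and Krt18, a keratin of the trophectoderm, differed by -0.08. Of the cumulus and granulosa markers, Gja1 differed by -0.65 (SE 0.26; limma, adjusted p = 0.740) and Cyp11a1 by 0.85. The 2 probes of Cyp11a1 disagreed, so this average stands for neither. One differed by 1.75 and held 4 exact ratios of 0, which may be unset values, and the other differed by -0.06. The median difference was -0.25 for fibroblast and 0.07 for blood markers. The 2 fibroblast genes went opposite ways, Col1a1 by -0.60 and Sparc by 0.09. Col1a1 was at the lower ratio limit of -6.64 on array 3 of cycloheximide, so the size of its difference is uncertain. In size, the shifts of Cdh1, Gata3, Gja1, Cyp11a1 and Col1a1 are as large as the difference of Dppa3 or larger. The part of these marker shifts in the results was not tested.

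An exact two-sided permutation test over the 6 arrays gave p = 0.5 for Dppa3, 1 for Dppa4, 0.2 for the lower and 0.5 for the higher probe of Dppa2. With 3 arrays against 3, this test cannot go below 0.1. The 2 groups were fully apart for 0 of the 4 probes, against 11.8% of all probes, and 0 of 4 had an unadjusted limma p under 0.05, against 6.02% of all probes. Whether arrays of 1 group stand for separate cultures is not in the labels, so these p-values cover only the spread among the arrays, part or all of which may be technical.

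**Figure D3:**
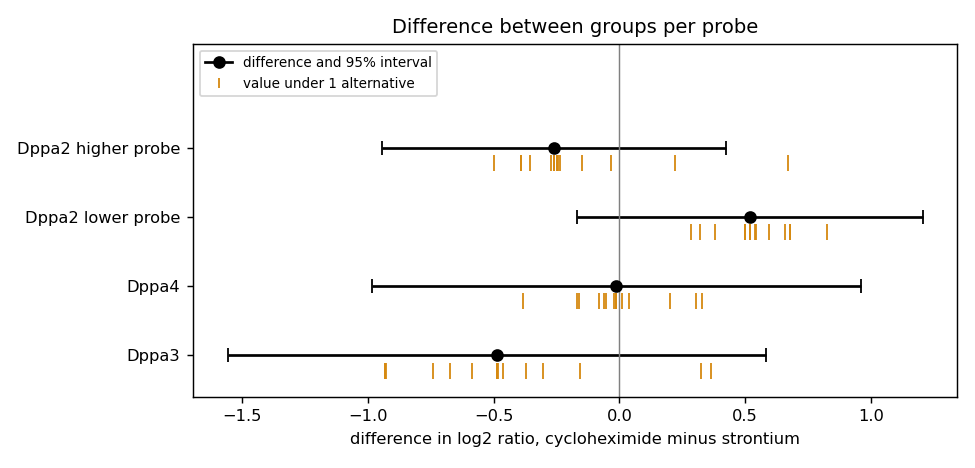
Difference in log2 ratio, cycloheximide minus strontium (x axis), for the 4 probes with a measurable difference. Points and bars are limma's estimate and 95% interval, and ticks below are the values under the alternatives; all 4 intervals include 0, and only the lower probe of Dppa2 has its ticks on 1 side of 0.

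Array 3 was the highest of its group for Dppa4 and the higher probe of Dppa2 in both groups, and for Dppa3 after cycloheximide. These are the arrays with the widest spread. Once medians and spreads were made equal, Dppa4 was at 2.36, 2.99 and 2.64 on the cycloheximide arrays and at 2.26, 2.33 and 2.41 on the strontium arrays. Array 2 was then the highest of the cycloheximide arrays, and the strontium arrays nearly coincided. The lower probe of Dppa2 was then at 2.80, 2.03 and 1.63 after cycloheximide and at 0.90, 1.65 and 1.44 after strontium, still with an overlap of the groups. For Tdgf1 the same scaling moves a fixed value by a different factor per array, so its scaled values do not measure its level.

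Genes linked to these members were taken as 5 lists, with the probes of a gene averaged and each gene fitted among all 4742 genes. None of the measured list genes passed the adjusted threshold, as for 0% of all genes, and 0 of these list genes had an unadjusted limma p under 0.05, against 6.64% of all genes. Among the marker genes, Cdh1, Gata3 and Gja1 did, all lower after cycloheximide. As a background, the median difference of all genes was -0.03, with 54.7% of them below 0, and the groups were fully apart for 11.9%. Not measured by a single-gene probe were, among others, Pou5f1, Sox2, Foxh1, Lefty1, Uhrf1 and Zscan4c.

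Of the Nodal pathway, 10 of 24 listed genes besides Tdgf1 were measured, 5 above and 5 below 0, with a median of -0.03. This median had no stable sign: it was 0.05 without array 1 of strontium and 0.05 without array 3 of cycloheximide, -0.12 without array 2 of cycloheximide, -0.09 without array 3 of strontium, and -0.09 with each probe counted. Tgif1 lay above 0 by 0.005 on the average of its 3 probes, which had differences of -0.04, 0.17 and -0.11. The ligand Nodal itself, added after its values were seen, averaged 0.04 ± 0.10 after cycloheximide against 0.10 ± 0.13 after strontium over its 4 probes (SD, n = 3), a log2 ratio near 0. Its probes disagreed, so this average stands for none of them: 1 of them was at -2.44 on array 3 of cycloheximide and -2.11 on array 3 of strontium, while the others lay between -0.44 and 1.21. Furin, a protease that cuts the Nodal precursor, was at 0.13, 0.31 and -0.37 after cycloheximide and at 0.65, 0.43 and 0.23 after strontium, a difference of -0.41 (SE 0.24). Smad7, an inhibitor within the pathway, was at 0.98, 0.73 and -0.92 after cycloheximide and at -0.65, 0.24 and -2.57 after strontium. Its arrays were spread widely, array 3 being the lowest in both groups, and the difference of 1.26 had an SE of 0.84.

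Of the list on pluripotency and the inner cell mass, 9 of 26 genes were measured, 8 above 0 and 1 below, with a median of 0.14, or 0.24 without array 3 of cycloheximide. The 1 below was Tfcp2l1, a transcription factor of naive pluripotency, at 0.27 ± 0.05 after cycloheximide against 0.48 ± 0.13 after strontium (SD, n = 3), where the arrays did not overlap. Tcf3 was at 0.75 ± 0.40 and 0.30 ± 0.51. Under this current symbol it is the gene of the E2A protein and not the repressor of pluripotency that once bore the name and is now Tcf7l1. Without Tcf3 the list had 8 genes measured, 7 above 0 and 1 below, with a median of 0.14. Tcl1 lay above 0 by its average only, since its 2 probes had differences of 0.66 and -0.05. Of the 2 probes of Nanog, 1 held 4 exact ratios of 0, which may be unset values.

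Of the list on DNA methylation, the process in which Dppa3 acts, 9 of 22 listed symbols were measured, 8 above 0 and 1 below, with a median of 0.26. Ipo5 was also listed under its older symbol Ranbp5. The arrays did not overlap for 3 of the 9 genes measured, Dnmt1, Ehmt1 and Npm1, against 11.9% of all genes. Dnmt1, the maintenance methyltransferase, was at -2.13, -2.30 and -2.25 after cycloheximide and at -2.68, -2.72 and -2.42 after strontium, a difference of 0.38 (SE 0.16; limma, adjusted p = 0.763). Ehmt1, a methyltransferase of histone H3, was at 2.14, 2.43 and 2.28 after cycloheximide and at 0.57, 1.77 and 1.95 after strontium, a difference of 0.85 (SE 0.38; limma, adjusted p = 0.784), with strontium array 1 far below the rest. Npm1, the nucleolar protein nucleophosmin, had the opposite sign and a difference of -0.09 (SE 0.14). The median of this list fell to 0.03 without array 3 of cycloheximide and to 0.05 without array 1 of strontium.

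Of targets and partners of Dppa2 and Dppa4, 8 of 23 genes were measured, 6 above 0 and 2 below, with a median of 0.13. Sumo2 lay above 0 by the average of its 3 probes, which had differences of 0.06, -0.28 and 0.85. Eif1a, a translation initiation factor abundant at the 2-cell stage in mouse, was at 2.08, 1.88 and 1.99 after cycloheximide and at 1.17, 1.58 and 1.77 after strontium. The arrays did not overlap, and the difference was 0.48 (SE 0.21; limma, adjusted p = 0.762). Kdm5b, a demethylase of histone H3, differed by -0.63 (SE 0.31). The median of this list was 0.29 without array 3 of cycloheximide and 0.05 without array 1 of cycloheximide.

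Of transcripts stored in the egg, the class to which Dppa3 belongs, 3 of 20 listed symbols were measured, all 3 above 0, with a median of 0.13. H1f8, not measured, was also listed under its older symbol H1foo. Zp2, a protein of the egg coat, was at 1.88 ± 0.38 after cycloheximide against 1.59 ± 0.77 after strontium (SD, n = 3). Bmp15, a growth factor secreted by the oocyte, was at 0.39 ± 0.39 and 0.26 ± 0.56 (SD, n = 3). The 2 probes of Bmp15 went opposite ways, with differences of 0.33 and -0.07, so its place above 0 holds for the average only. The median turned to -0.14 without array 3 of strontium. It was 0.35 without array 3 of cycloheximide, 0.30 without array 1 of strontium and 0.27 without array 2 of strontium.

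**Figure D4:**
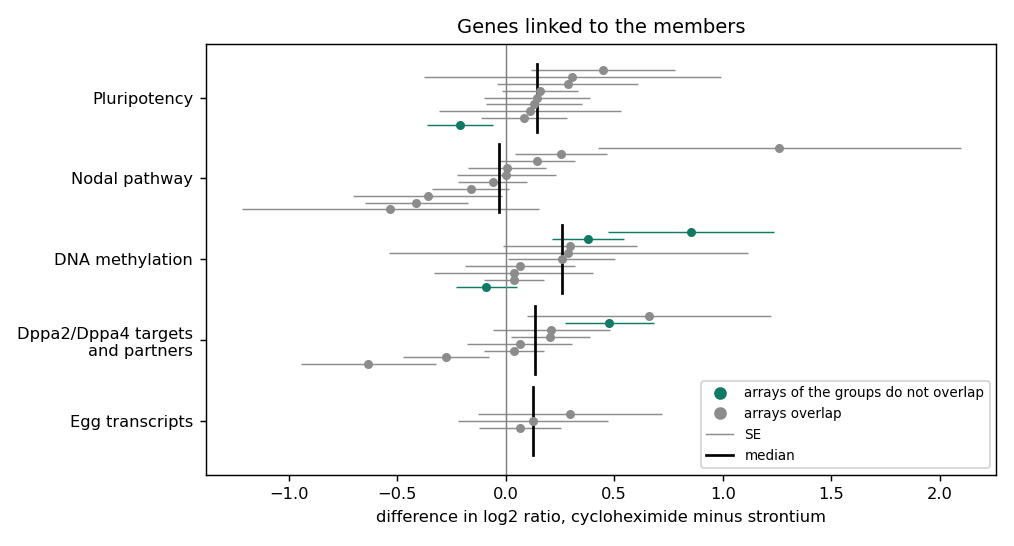
Difference in log2 ratio, cycloheximide minus strontium (x axis), of each measured gene of the 5 linked lists, with its SE; vertical bars are list medians and green points are genes whose arrays do not overlap between the groups. The medians run from -0.03 for the Nodal pathway to 0.26 for DNA methylation, and none of the genes passed the test.

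The single-gene probes most like each member were found by the root mean square difference of the log2 ratio over the 6 arrays, among 6147 probes of other genes. Eif1a, Macf1 and Appl1 came closest to the lower probe of Dppa2, at 0.19, 0.22 and 0.24. Macf1 links actin to microtubules, and Appl1 is an adaptor of endosomes. Eif1a, which encodes a translation initiation factor, was also on the list of targets and partners of Dppa2 and Dppa4. Dmtf1, Cenpe and Tomm40 came closest to Dppa4, at 0.33, 0.34 and 0.35. Dmtf1 is a transcription factor, Cenpe a motor protein of the kinetochore and Tomm40 the pore of protein import into mitochondria. Sp1, a transcription factor of GC boxes, came closest to the higher probe of Dppa2 at 0.26 and to Dppa3 at 0.53. After it followed Npl, an enzyme of sialic acid breakdown (0.58), and the claudin Cldn13 (0.82) for Dppa2, and Cldn13 (0.55) and Npl (0.96) for Dppa3. Arrays at the limit enter these distances: at least 1 of the compared probes was at the limit on 3 of 6 arrays for Sp1 and the higher probe of Dppa2, on 2 for Sp1 and Dppa3, and on 5 for Npl and either. The true distances near the limit are therefore unknown, and so is the order of these genes. Few probes reach such ratios, so this search had little to choose from near the limit, and all arrays share their reference RNA.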

How the data were processed

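RNA of 6 samples was measured on Agilent arrays with 2 colours. The authors deposited log10 ratios of the 2 channels for 22132 probes. Per the submitters' processing notes the authors used Agilent Feature Extraction, with version, background and dye settings not given in the sources used here. Precision is limited by the number of arrays, and without intensities the signal over background is unknown. The sign was turned and each value scaled by 3.32, which makes it log2 of embryo over reference. No array or gene centring was added; cycloheximide arrays had medians of -0.0538, -0.0517 and -0.0313 as deposited, and strontium arrays of -0.0580, -0.0602 and -0.0389.

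Exact ratios of 0 (471 to 755 per array) may be unset values and were kept. The 211 probes at 0 on all arrays were left out, and 21921 were tested. The annotation gave 1 gene for 6249 probes, several for 9389 and none for 6494; 6179 matched the mouse gene table by gene ID.

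Groups were compared with limma 3.58.1 (lmFit, eBayes) in R 4.3.3, tested on simulated data, with Python 3.11.15, pandas 2.3.3, NumPy 2.4.6 and matplotlib 3.10.9 for the rest. Alternatives changed scaling, unset and limited ratios, the probes kept, the variance model, array weights, a replicate block, position (a running median of 201 probes) and the arrays used. The deviations of same-numbered arrays from their group means correlated at 0.056, 0.379 and 0.501. The main fit did not pair arrays by number, although these values leave room for shared structure, and the replicate block did so as an alternative. The members, the lists and the rules were chosen with earlier results of these data known. Named were all probes of the members, for each list the 2 genes with the smallest p and up to 3 more without overlap, and the 3 most alike probes of each member. Some genes beyond these, such as Tcl1, Nanog, Sumo2 and Tgif1, were named where their probes set a limit.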

Additional observations from a re-analysis of the deposited data

How the results depend on the processing

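The count of 0 probes past the adjusted threshold held in the alternatives run except array weights, where 359 passed; those weights were 22.6 for cycloheximide array 2 and 0.156 for cycloheximide array 3, and the cause was not tested. None of the 4 probes of Dppa2, Dppa3 and Dppa4 passed the adjusted threshold in any of 18 alternatives. The lowest adjusted p was 0.0923 for Dppa3, with array weights. No difference of Tdgf1 is given under any alternative, since every array is at the limit. The difference of Dppa4 became 0.011 with medians set to 0 and 0.33 with equal spreads, and ranged from -0.38 to 0.31 with 1 array left out. That of the higher probe of Dppa2 ranged from -0.50 to -0.034 with 1 array left out. That of Dppa3 became 0.33 with equal spreads and 0.36 with quantile normalization, and that of the same probe of Dppa2 0.67 and 0.22. With ratios at the limit set to missing, Dppa3 differed by -0.93. With 1 array left out, list medians ranged from 0.033 to 0.32 for DNA methylation, 0.051 to 0.29 for targets and partners of Dppa2 and Dppa4, -0.14 to 0.35 for egg transcripts, -0.12 to 0.053 for the Nodal pathway and 0.11 to 0.24 for pluripotency. Leaving out Tcf3, chosen after seeing the data, gave 0.14 for pluripotency.

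At an unadjusted limma p under 0.05 there were 1319 probes, against 4242 without array 3 of cycloheximide, 748 without array 1 and 815 without array 2 of cycloheximide, 810 without array 1 of strontium and 7232 with array weights. The use of arrays 1 and 2 of each group alone, chosen after seeing the data, gave 0 past the threshold and 4077 unadjusted. Among probes with 1 gene only there were 386, where fewer probes were tested. The replicate block gave 0 past the threshold and 2086 unadjusted, and changed no call; with it Dppa4 differed by -0.01 (SE 0.23). Changes smaller than the intervals given could not be told from 0.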
